A study of Mus musculus with 16 samples.

Results

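The ATF4 stress and serine-folate genes were followed in gastrocnemius muscle through 14 probes for 10 genes (Trib3, Mthfd2, Atf4, Ddit3, Asns, Psat1, Phgdh, Shmt2, Atf5 and Sesn2), out of 41174 probes and 27745 gene names on the array. Members were taken by gene name, and every probe carrying one of these names was used. The genes were picked with the difference between the diets already known, and the study itself had listed Trib3 and Mthfd2 as regulated on these arrays. Their diet differences are therefore a description without a test. Only their relations across mice within the groups, which the choice did not use, were tested.

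All mice were male C57BL/6N, 3 months old at the start, and ate a high-fat diet (cHF) with 10 mg rosiglitazone per kg diet for 8 weeks. Rosiglitazone is an agonist of the nuclear receptor PPARgamma. The 8 cHF+ROSI mice received only this diet, while the diet of the 8 cHF+F+ROSI mice had 15% of its lipids exchanged for marine n-3 fatty acids (DHA and EPA as triglycerides). Before killing, every mouse was fasted for 10 h in the light phase and then given Chow overnight, so the muscles were those of re-fed animals on Chow. No mouse without rosiglitazone and no mouse without the high-fat diet belonged to either group. Muscle RNA of each mouse (Cy5 dye) was hybridised against 1 common pool of muscle RNA (Cy3 dye), and the values below are log2 ratios of mouse over pool after loess normalization.

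ATF4 is the transcription factor of the integrated stress response. Kinases that sense lack of amino acids, stress in the endoplasmic reticulum or mitochondrial faults phosphorylate the initiation factor eIF2 alpha, which lowers general translation but favours translation of the Atf4 mRNA, so that ATF4 protein can rise with no change in its mRNA. ATF4 then activates genes for amino acid uptake and synthesis, among them those of serine synthesis and of the mitochondrial folate cycle, in which a carbon unit from serine is passed to folate and on to formate. In muscle this programme is best known from mitochondrial disease, in which Mthfd2 and the serine synthesis genes are induced together.

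ATF4, paired with a C/EBP protein, binds a DNA element with the core TGATGNAA. The core was searched on both strands in the RefSeq promoter windows of the mouse build GRCm38.p6 (250 bases before to 50 after each start), and 10 of 10 members had a window. It was found in 2 of them, Trib3 and Asns, while 1304 of 32851 windows of all genes (3.97%) held it. These 2 stretches are shown because they are the only member windows with the core, which is in capitals. Both are written along the gene, which lies on the minus strand in each case, and the Trib3 stretch carries the core on the opposite strand, so that its letters read as the reverse complement.
Trib3, chr2:152344028-152344057: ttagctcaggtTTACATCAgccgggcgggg
Asns, chr6:7693210-7693262: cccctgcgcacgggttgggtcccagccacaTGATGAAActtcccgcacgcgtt
The Trib3 core began 15 bases into the transcribed part and the Asns core 23 bases before the start. For the other 8 genes, these letters were not in the window used.

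All 14 member probes passed the filter on weak spots, which kept 19398 probes, and all gave a Cy5 signal well above background on all 16 arrays with no spot saturated. The arrays lay on 4 slides with 2 mice of each diet on each slide. On every slide the cHF+ROSI mice had the first and the third place and the cHF+F+ROSI mice the second and the fourth, so place and diet cannot be told apart. Median Cy5 signals ran from 121.5 to 186 units in cHF+ROSI arrays and from 153 to 176 in cHF+F+ROSI arrays. All 8 skeletal muscle markers fixed for the check (such as Ckm and Acta1) were well above background on every array. In whole muscle, a difference in RNA per cell and a difference in the number of cells of a type cannot be told apart.

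Across the diets, Trib3 and Mthfd2 showed the largest differences among the members, Asns, Atf5, Psat1 and 1 Phgdh probe smaller ones, and Atf4, Ddit3, Shmt2 and Sesn2 little or none. The difference was above 0 for 12 of 14 probes, with a median log2 fold change (cHF+F+ROSI over cHF+ROSI) of 0.13 beside a median of 0.00 over all kept probes, of which 49.2% were above 0. With Benjamini-Hochberg adjustment in limma over all kept probes, 0 of 14 member probes were past an adjusted p of 0.05, and 0.0155% of all probes were. Before adjustment, limma put 6 of 14 member probes at p up to 0.05 as higher in cHF+F+ROSI mice and 0 as lower, beside 3.5% of all probes higher and 3.96% lower. On the same values, the methods' t-test put 5 of 14 member probes at p up to 0.05 before Benjamini-Hochberg adjustment and 0 after it, beside 7.55% and 0.0103% of all probes. For 5 of 14 member probes (both of Trib3, Mthfd2, Psat1 and the brighter one of Sesn2) all 8 cHF+F+ROSI mice exceeded the mean of the cHF+ROSI mice, which held for 2.83% of all probes. The same contrast had picked the members, so nothing is read from these counts.

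**Figure D1:**
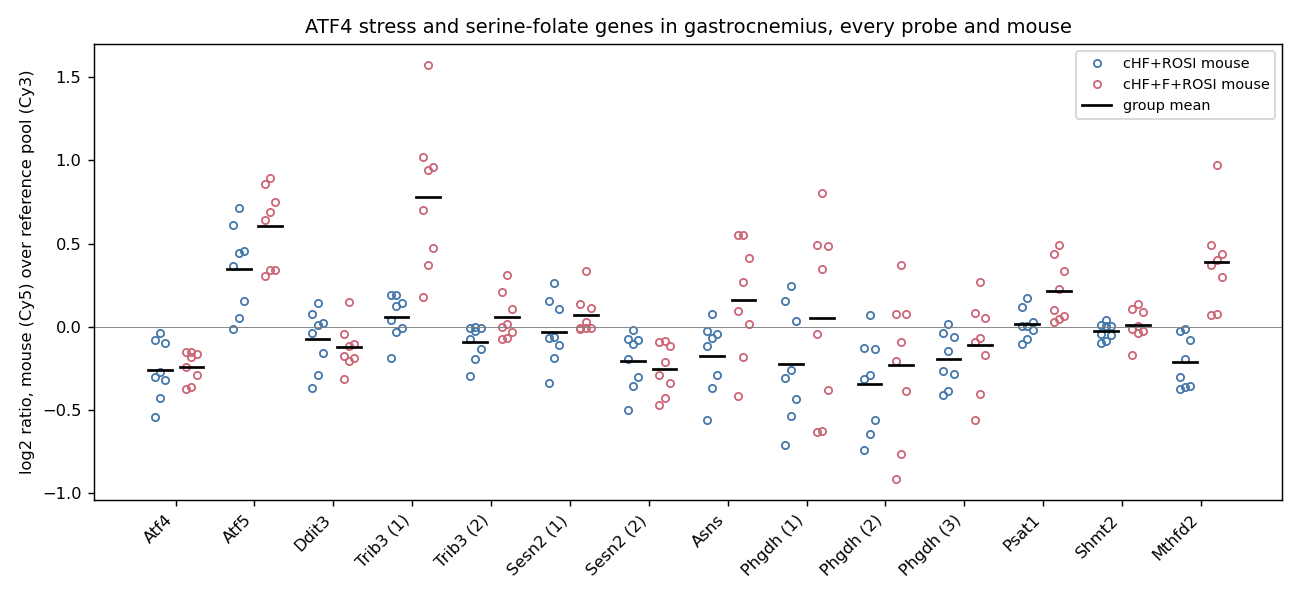
Log2 ratio of each mouse over the reference pool (vertical axis) for the 14 member probes (horizontal axis), ordered from transcription factors to folate enzymes. Open circles are the 8 cHF+ROSI mice (blue) and the 8 cHF+F+ROSI mice (red), black bars are group means, and numbers in brackets tell probes of a gene apart, the brightest first. The 8 Mthfd2 values of cHF+F+ROSI mice lie above all 8 of cHF+ROSI mice, whereas the groups overlap for Atf4, Ddit3 and Shmt2. The genes were picked on this contrast.

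Among the transcription factors, the Atf4 mRNA did not separate the diets. Atf4 (chr15:80083904-80083963 in the array's build NCBI36) ran from -0.54 to -0.03 with a median of -0.29 in cHF+ROSI mice, and from -0.37 to -0.15 with a median of -0.21 in cHF+F+ROSI mice. The cHF+F+ROSI values lay wholly inside the cHF+ROSI range, and the log2 fold change was 0.02 ± 0.07 (SE, n = 8 and 8). Ddit3, which encodes CHOP, the factor tied to cell death in prolonged stress, ran from -0.37 to 0.14 (median -0.01) in cHF+ROSI and from -0.31 to 0.15 (median -0.14) in cHF+F+ROSI mice. Its log2 fold change was -0.05 ± 0.08, again with nearly the same range in both groups. Atf5, a relative of ATF4 that takes part in the mitochondrial stress response and was the brightest member probe against background, ran from -0.01 to 0.72 (median 0.41) in cHF+ROSI and from 0.31 to 0.89 (median 0.67) in cHF+F+ROSI mice. The Atf5 groups overlapped, with 3 of 8 cHF+F+ROSI mice above every cHF+ROSI mouse, and the log2 fold change was 0.26 ± 0.12.

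Trib3 encodes a pseudokinase that is induced by ATF4 and CHOP, acts back on them, and can bind AKT. Its brighter probe (chr2:152029060-152029119) ran from -0.18 to 0.19 with a median of 0.08 in cHF+ROSI mice, and from 0.18 to 1.57 with a median of 0.82 in cHF+F+ROSI mice. All cHF+F+ROSI mice but 1 exceeded every cHF+ROSI mouse, and the SD was 0.44 in cHF+F+ROSI against 0.13 in cHF+ROSI mice. The log2 fold change was 0.72 ± 0.15, a 1.65-fold difference that ranked 2 of 19398 probes. On the 4 slides taken one at a time, each with 2 mice against 2, the Trib3 difference was 0.70, 0.72, 0.76 and 0.69.

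The second Trib3 probe (chr2:152029730-152029789), aimed at the same transcript, gave a smaller difference. It ran from -0.29 to 0.00 (median -0.05) in cHF+ROSI and from -0.07 to 0.31 (median 0.01) in cHF+F+ROSI mice, a log2 fold change of 0.15 ± 0.06 with overlapping groups. Over the processing alternatives its log2 fold change ran from 0.12 to 0.58, highest with the scanner software's processed signals. This probe was dim, at 4.26 times background in Cy5 and 2.24 times in Cy3, beside 21.8 and 4.26 times for the first probe. Deviations of the 2 probes from their group means had a correlation of 0.61 over the 16 mice. Signal strength and probe position both differed between them, and their part in the gap was not tested.

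Sesn2 encodes sestrin-2, a stress protein that senses leucine and restrains mTORC1. Its brighter probe (chr4:131764135-131764194, designed on a cDNA clone) ran from -0.34 to 0.27 (median -0.06) in cHF+ROSI and from -0.01 to 0.33 (median 0.01) in cHF+F+ROSI mice. The other (chr4:131765019-131765078, designed on the RefSeq transcript) ran from -0.50 to -0.02 (median -0.15) and from -0.47 to -0.09 (median -0.25). Both overlapped between diets and their signs were opposite, with log2 fold changes of 0.10 ± 0.08 and -0.05 ± 0.08. The correlation between the 2 probes over the 16 mice was only 0.15, so that they did not report the same variation.

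Asns, the asparagine synthetase gene and a classic ATF4 target, was higher on average in cHF+F+ROSI mice but with wide scatter. It (chr6:7625194-7625253) ran from -0.56 to 0.07 (median -0.09) in cHF+ROSI and from -0.42 to 0.55 (median 0.18) in cHF+F+ROSI mice. In all, 5 of 8 cHF+F+ROSI mice were above every cHF+ROSI mouse, and the log2 fold change was 0.34 ± 0.13. By slide, the Asns difference was 0.58, 0.50, -0.22 and 0.48, so 1 of the 4 slides ran the other way.

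Serine synthesis from glycolysis starts with PHGDH and continues with PSAT1. Psat1 (chr19:15972499-15972558) ran from -0.10 to 0.17 (median 0.01) in cHF+ROSI and from 0.03 to 0.49 (median 0.16) in cHF+F+ROSI mice. The groups overlapped, 4 of 8 cHF+F+ROSI mice lay above every cHF+ROSI mouse, and the log2 fold change was 0.20 ± 0.07. Phgdh was covered by 3 probes, of which the first (chr3:98398580-98398639) and the second (chr3:98398576-98398606) overlap and so share part of a target, while the third (chr3:98399808-98400516) is listed over a longer stretch of the genome.

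Phgdh varied more among mice of 1 diet than between diets. Its brightest probe ran from -0.71 to 0.24 (median -0.28) in cHF+ROSI and from -0.63 to 0.80 (median 0.15) in cHF+F+ROSI mice, with SDs of 0.34 and 0.55. The log2 fold changes of the 3 probes were 0.28 ± 0.21, 0.11 ± 0.17 and 0.09 ± 0.10, all with overlapping groups, and the difference on the third slide was -0.40, -0.36 and -0.20. Leaving out single mice moved them from 0.17 to 0.38, from 0.03 to 0.21 and from 0.03 to 0.15, and each was lowest without cHF+F+ROSI mouse 8. The 3 probes varied together over the 16 mice, with correlations of 0.85 to 0.95 between their deviations from the group means.

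In the mitochondrial folate cycle, SHMT2 splits serine into glycine and a folate-bound carbon unit, which MTHFD2 then oxidises. Shmt2 (chr10:126920704-126920763) ran from -0.09 to 0.04 (median -0.02) in cHF+ROSI and from -0.17 to 0.14 (median -0.01) in cHF+F+ROSI mice. The Shmt2 ranges overlapped and the log2 fold change was 0.04 ± 0.05. Mthfd2 (chr6:83272182-83272241) ran from -0.37 to -0.01 (median -0.25) in cHF+ROSI and from 0.07 to 0.98 (median 0.39) in cHF+F+ROSI mice. For Mthfd2 the groups did not overlap: every cHF+F+ROSI mouse was above every cHF+ROSI mouse. How many of all probes separate the groups in this way was not counted. Mthfd2 was picked on this contrast, so the separation is a description.

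The log2 fold change of Mthfd2 was 0.60 ± 0.11, a 1.52-fold difference that ranked 4 of 19398 probes, and by slide it was 0.57, 0.86, 0.40 and 0.60. Its size depended on the treatment of the signals, from 0.49 to 1.40 over the processing alternatives, with the highest value from the scanner software's processed signals. The authors' table gave 1.11 and Cy5 only 1.02, while scale normalization between arrays gave the lowest value. Trib3 ran from 0.59 to 1.07 over the same alternatives. For the pool's own signal (Cy3), Mthfd2 differed by 0.07 ± 0.03 between the diets' arrays and the other 13 member probes by -0.04 to 0.03 (log2).

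**Figure D2:**
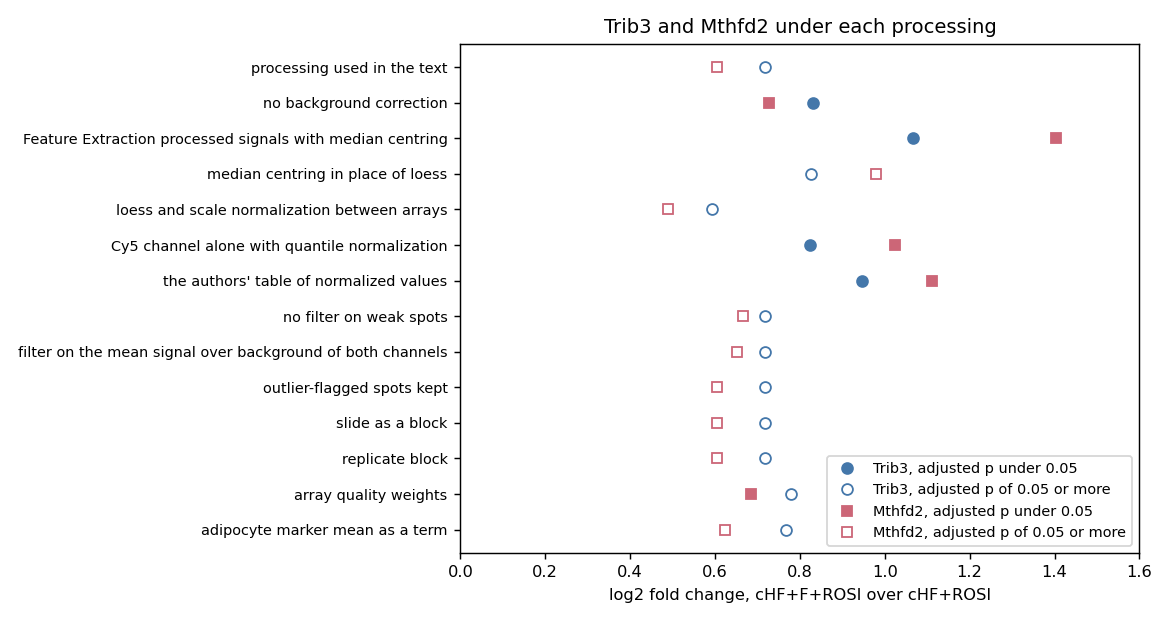
Log2 fold change of Trib3 (circles, brighter probe) and Mthfd2 (squares), cHF+F+ROSI over cHF+ROSI (horizontal axis), under each processing alternative (vertical axis). Filled symbols have a limma adjusted p under 0.05 over all probes and open symbols do not. Both genes were picked on this contrast, so the filled symbols are a description. All values are above 0, and Mthfd2 runs from 0.49 to 1.40.

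The members' neighbours in the pathway were read from lists, with 1 probe per gene. Of 99 genes in 6 lists, 88 passed the filter. None was past an adjusted p of 0.05 in limma (0.0155% of all probes were), the smallest being 0.46, and before adjustment limma put 2 at p up to 0.05 as higher and 4 as lower in cHF+F+ROSI mice, beside 3.5% and 3.96% of all probes. The median log2 fold change over these 88 genes was 0.00.

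Of 24 other ATF4 target genes, 18 were measured, 8 of them above 0, with a median log2 fold change of -0.01. In limma, 0 were past the adjusted threshold, and before adjustment 0 were higher and 1 lower at p up to 0.05. That gene was Jdp2, which encodes a repressor of the AP-1 family, at -0.15 ± 0.07. Jdp2 was below the cHF+ROSI mean in all 8 cHF+F+ROSI mice. Ddit4 and Atf3, named after their values were seen, scattered far more than Trib3 or Mthfd2, unlike most of the 18 targets. Ddit4, an inhibitor of mTORC1, stood at -0.77 ± 0.48 and Atf3, a stress-induced repressor, at -0.77 ± 0.45. The targets Slc7a11, Slc7a1, Slc1a4, Stc2, Fgf21 and Aldh18a1 did not pass the filter, which asks for signal in both channels, and gave no value here. Of these, Slc7a1, Stc2 and Aldh18a1 were well above background in Cy5 on all 16 arrays.

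Of 26 other serine, glycine and folate genes, 22 were measured and 17 of them were above 0, with a median log2 fold change of 0.06. One was higher at p up to 0.05 before adjustment in limma, Mthfd1l, at 0.18 ± 0.08. Its product makes formate in mitochondria, the step after MTHFD2. The cHF+ROSI mice averaged 0.19 ± 0.16 (SD, n = 8) and the cHF+F+ROSI mice 0.37 ± 0.17 for Mthfd1l, and 7 of 8 cHF+F+ROSI mice exceeded the mean of cHF+ROSI mice. After adjustment in limma its p was 0.63.

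Of the eIF2 alpha kinases, subunits and phosphatases, 15 of 16 genes were measured with a median of -0.02. Ppp1r15a, which encodes GADD34, the stress-induced subunit that brings a phosphatase to eIF2 alpha and is itself an ATF4 pathway gene, stood at -0.24 ± 0.08, lower than the cHF+ROSI mean in 7 of 8 cHF+F+ROSI mice. Its adjusted p in limma was 0.46, the smallest of the 88 genes. For the subunits of eIF2B, the exchange factor of eIF2, the log2 fold change was 0.18 ± 0.07 for Eif2b2 and -0.13 ± 0.06 for Eif2b5. None of the 4 kinases (Eif2ak1 to Eif2ak4) reached p up to 0.05 before adjustment in limma, and their log2 fold changes lay between 0.00 and 0.06.

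The other branches of stress signalling were read from 3 further lists. All 19 ER stress genes of the XBP1 and ATF6 branches were measured, with a median of -0.02 and a range from -0.11 to 0.07. One, the ER co-chaperone gene Dnajb11, was lower at p up to 0.05 before adjustment in limma (-0.10 ± 0.05). Of the 8 mitochondrial chaperones and proteases, all measured, none was at that threshold, and the largest value was 0.06 ± 0.07 for Hspa9, the chaperone mortalin. Of the 6 tribbles relatives and AKT kinases none was either, and Trib2, a relative of Trib3, stood at -0.27 ± 0.16.

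**Figure D3:**
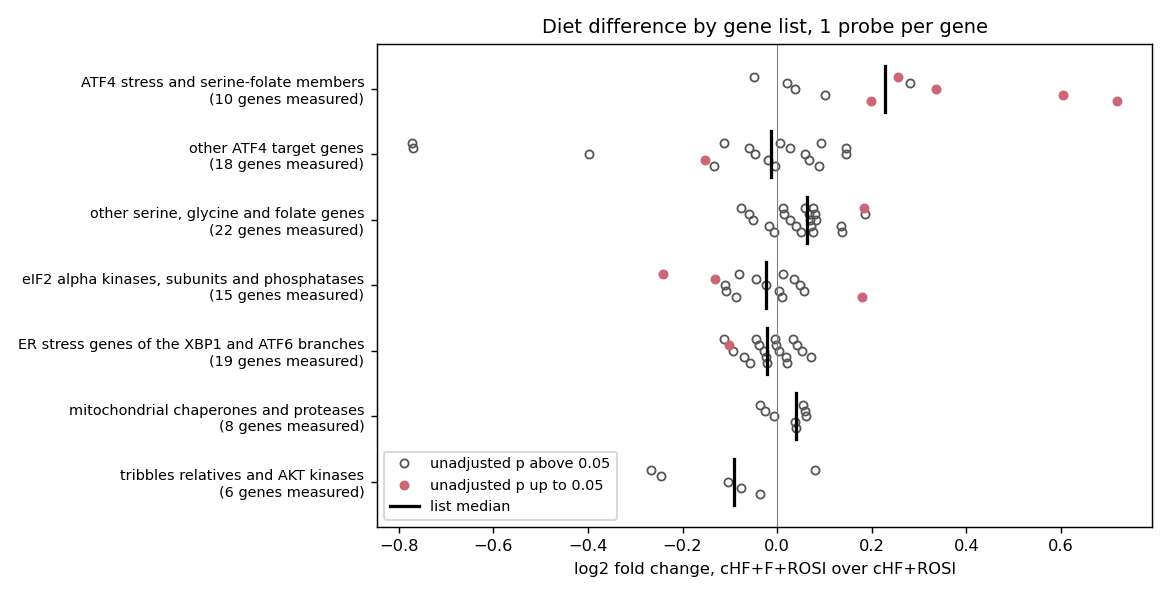
Log2 fold change, cHF+F+ROSI over cHF+ROSI (horizontal axis), of each measured gene (circles, 1 probe per gene) in the members' list and the 6 other pathway lists (vertical axis). Red circles have a limma p up to 0.05 before adjustment, and black bars are list medians. The members were picked on this contrast and the median of their 10 brightest probes is 0.23, whereas the other medians lie between -0.09 and 0.06.

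Whether Trib3 and Mthfd2 varied together with the other members from mouse to mouse was asked within the diets. Deviations from the group means were correlated over the 16 mice for Trib3 with 9 genes and for Mthfd2 with the 8 others, 17 relations in all, with p-values from 100000 permutations within groups (two-sided). Trib3 and Mthfd2 had the highest r of these, r = 0.74 (permutation p = 0.00829, adjusted over the 17 relations 0.141) and rho = 0.45 (permutation p = 0.103, adjusted 0.439). When the 2 mice most distant from the median (cHF+F+ROSI mice 4 and 5) were left out, r was 0.30, so the pooled value depended on those mice. Without cHF+F+ROSI mouse 4 alone the pooled r was 0.47. Within the cHF+F+ROSI group alone, r without the same 2 mice was 0.81. By rank, Trib3 with Shmt2 had the highest value, rho = 0.61 (permutation p = 0.0353, adjusted 0.437) with r = 0.59 (permutation p = 0.0655, adjusted 0.315), and r was 0.60 without the same 2 mice. In a limma fit with diet and Trib3 as terms over all probes, the adjusted p of Mthfd2 was 0.88. No member was past an adjusted p of 0.05 in that fit or in the one on Mthfd2, and 0% of all probes were in either.

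The relations were also read inside each diet taken singly, with the brighter Trib3 probe. In cHF+F+ROSI mice, Trib3 and Mthfd2 followed each other closely: r = 0.94 (exact permutation p = 0.000794, adjusted over the 34 relations in both groups 0.027) and rho = 0.95 (exact permutation p = 0.00114, adjusted 0.0388) over 8 mice. Leaving out the 2 mice farthest from the median (again mice 4 and 5) left r at 0.81. Leaving out any 1 cHF+F+ROSI mouse left it between 0.89 and 0.97. In cHF+ROSI mice, where neither gene varied much, r was -0.39 (exact permutation p = 0.349) and rho -0.57 (exact permutation p = 0.151). The second Trib3 probe had r = 0.75 with Mthfd2 in cHF+F+ROSI mice and 0.44 in cHF+ROSI mice. The difference between the 2 groups' correlations was not tested.

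In cHF+F+ROSI mice, 14 of the 17 relations were above 0, and 4 were past an adjusted p of 0.05 by r but 1, that of Trib3 with Mthfd2, by rho. The others were Trib3 with Atf5 (r = 0.88, exact permutation p adjusted 0.0348, and rho = 0.83, adjusted 0.174), Trib3 with Sesn2 (r = 0.87, exact permutation p adjusted 0.0348, and rho = 0.88, adjusted 0.123) and Mthfd2 with Sesn2 (r = 0.90, exact permutation p adjusted 0.0348, and rho = 0.81, adjusted 0.185). With the 2 most distant mice left out these r values were 0.93, 0.70 and 0.62. Both Sesn2 relations are those of its brighter probe. The other Sesn2 probe had r = -0.01 with Trib3 and 0.24 with Mthfd2 in cHF+F+ROSI mice. Mouse 4 of this group had the highest Trib3, Mthfd2 and Sesn2 values, at 1.57, 0.98 and 0.33 for the brighter probes. In cHF+ROSI mice 6 of 17 relations were above 0 and none passed, with r from -0.53 to 0.42. How many of all probes reach such r with Trib3 or Mthfd2 inside 1 diet was not counted. The relations inside a diet are therefore not read as particular to the members. In neither group did Atf4 mRNA follow Trib3 (r = -0.10 and 0.22) or Mthfd2 (r = 0.10 and -0.05), with exact permutation p of 0.601 or more in all 4 cases.

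The probes most like Trib3 over the 16 mice, among 19398 and counting those with a RefSeq name, belonged to Ahr (r = 0.80), Arhgap12 (0.78), Rgs16 (0.75), Mthfd2 (0.74) and Olfr59 (0.74). Those most like Mthfd2 belonged to Ndufb6 (r = 0.87), Pdhx (0.78), Aldh5a1 (0.78), Iqcg (0.76) and Grin3b (0.76). These are the highest values of a ranking over all probes and are given without a test. Mthfd2 was thus the fourth gene by likeness to Trib3.

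Phgdh varied from mouse to mouse with the adipocyte markers in the muscle sample. The mean log2 ratio of 8 adipocyte markers (Adipoq, Fabp4, Plin1, Cfd, Lep, Retn, Lipe and Cidec, all 8 above background on every array) ran from -0.97 to 0.28 in cHF+ROSI and from -1.30 to 0.86 in cHF+F+ROSI mice. Over the 16 mice, the deviations of Phgdh and of this mean had r = 0.96 and rho = 0.95 (permutation p = 1e-05 for both, the smallest that 100000 permutations can give, and 0.0005 after adjustment over 50 relations of the 10 members with 5 marker lists). With the 2 most distant mice left out r was 0.94. It was 0.94 within cHF+ROSI mice (exact permutation p = 0.00122) and 0.96 within cHF+F+ROSI mice (exact permutation p = 0.000372). The other Phgdh probes had r = 0.95 and 0.87.

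In a limma fit over all probes with diet and the marker mean as terms, the slopes of the 3 Phgdh probes were 0.70 ± 0.06, 0.56 ± 0.05 and 0.30 ± 0.05 log2 units per log2 unit of the markers, with adjusted p of 3.1e-06, 1.64e-05 and 0.00582. Among all probes 0.335% were past the threshold, the other 11 member probes not among them. With the marker mean in the fit, the log2 fold changes of the Phgdh probes between diets were 0.13, 0.00 and 0.02, while Trib3 stood at 0.77 and Mthfd2 at 0.62. Trib3 and Mthfd2 correlated with the marker mean at r = -0.44 and -0.26 (permutation p = 0.172 and 0.419). Asns and Psat1 had r = 0.51 and 0.52 (permutation p = 0.0793 and 0.0754). The brighter Sesn2 probe followed the markers in cHF+ROSI mice (r = 0.88, exact permutation p = 0.00454, adjusted over 20 relations 0.0303). It stood at r = -0.53 in cHF+F+ROSI mice (exact permutation p = 0.177), and the difference between these values was not tested. The other Sesn2 probe was not set against the markers within each diet. In cHF+ROSI mice it had r = 0.15 with the brighter one, so the relation is that of 1 probe.

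**Figure D4:**
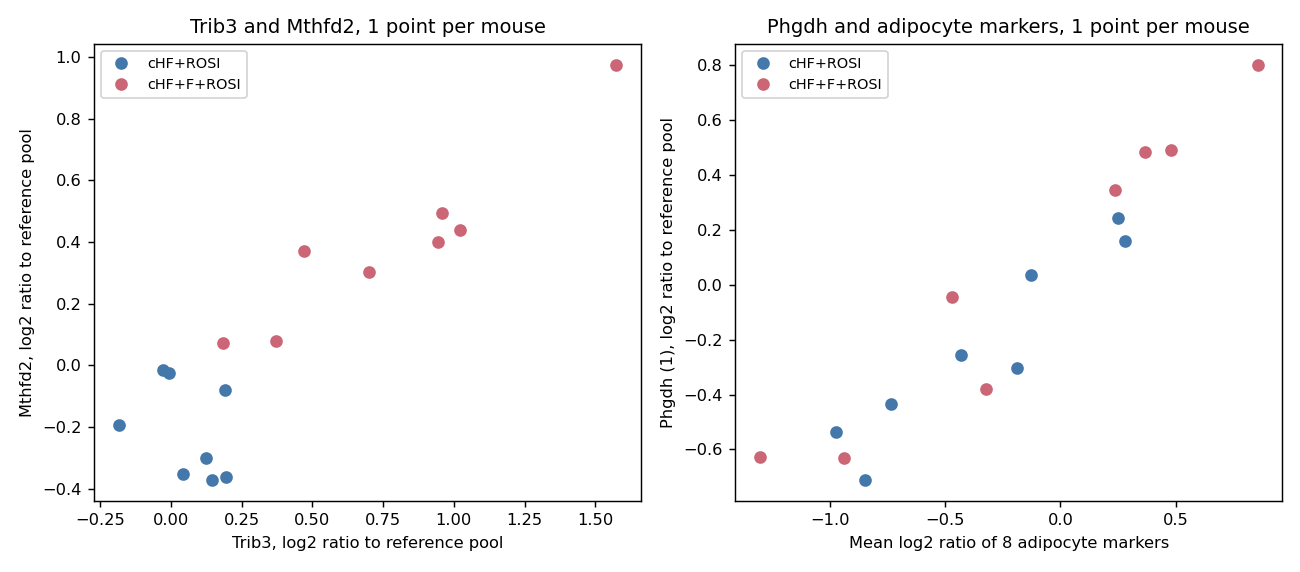
Left, Mthfd2 (vertical axis) against Trib3 (horizontal axis, brighter probe), and right, the brightest Phgdh probe (vertical axis) against the mean of 8 adipocyte markers (horizontal axis), all as log2 ratios to the reference pool with 1 point per mouse. Blue points are the 8 cHF+ROSI mice and red points the 8 cHF+F+ROSI mice. Left, r is 0.94 in cHF+F+ROSI and -0.39 in cHF+ROSI mice, and right, r is 0.96 and 0.94.

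Markers of other cells and states were set beside the members in the same way. Between the diets, all 8 slow fibre markers but 1 were lower in cHF+F+ROSI mice (median log2 fold change -0.40, per-mouse mean from -1.22 to 0.68 in cHF+ROSI and from -2.09 to 0.29 in cHF+F+ROSI mice), and 6 of 8 adipocyte markers were higher (median 0.29). The slow fibre mean of -2.09 was that of cHF+F+ROSI mouse 2, with the next lowest of that diet at -0.57. Over all kept probes, 49.2% were above 0. The median log2 fold changes were 0.17 for 4 red blood cell markers, -0.02 for 8 macrophage markers and -0.11 for 10 immediate early genes. None of these markers was past an adjusted p of 0.05 in limma, and 1, the immediate early gene Jun, reached p up to 0.05 before adjustment. Apart from Phgdh with the adipocyte markers, none of the 50 relations of members to marker means passed after adjustment. The part of cell composition in the diet differences of the members was not tested. The fit with the adipocyte mean, chosen after seeing the data, only describes them.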

How the data were processed

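Gastrocnemius RNA of 16 mice was measured on 2-colour Agilent arrays, and the deposited scanner files give Cy5 and Cy3 intensity per spot from Feature Extraction (10.5.1.1 per the file headers, 10.5.5.1 in the submitters' processing notes). The authors' table of normalized log2 values was used as an alternative only. Median signals were corrected by normexp (offset 50), spots had to average at least 2 times background in both channels, control spots and, on their own array, outlier spots were dropped, and ratios were normalized by loess. Spots of a probe were averaged, and limma 3.58.1 (R 4.3.3) compared 8 with 8 mice, with Benjamini-Hochberg adjustment. The number of arrays limits the precision. Same-numbered mice of the diets are separate animals, and their deviations correlated from -0.34 to 0.73, so the main fit was unpaired. The cHF+ROSI RNAs had been labelled and hybridised 2 times, and 1 array each belongs to this series. Relations used deviations from group means.

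For each list the 1 brightest kept probe of a gene was taken, and its up to 4 genes with the smallest unadjusted p of up to 0.05 were named, or else the 1 with the largest change. Genes renamed since the array's design were matched by RefSeq accession. Members and lists were chosen with earlier results of these data known. The scripts were tested on these arrays with the diet labels mixed and with changes of known size added to randomly drawn probes.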

Additional observations from a re-analysis of the deposited data

Results flagged for a closer look

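In 2 of the 28 sets of 8 values (14 member probes in 2 diets) a single mouse stood far from the others, against about 1 in 20 by chance. Both were cHF+F+ROSI mouse 4. Its Mthfd2 ratio of 0.98 was separated from the next mouse by 0.535 of the group's whole range, and its Sesn2 ratio (brighter probe) of 0.33 by 0.566. Leaving this mouse out gave log2 fold changes of 0.52 for Mthfd2 and 0.06 for Sesn2.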

How the results depend on the processing

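Mthfd2 and both Trib3 probes moved with the background correction and with the normalization. Mthfd2 went from 0.60 to 0.73 with no background correction and to 0.98 with median centring in place of loess. The brighter Trib3 probe went from 0.72 to 0.83 under each of these, and the second Trib3 probe from 0.15 to 0.21 and 0.36. With the Feature Extraction processed signals the second Trib3 probe stood at 0.58. For 0 member probes past an adjusted p of 0.05, the count became 2 (Trib3 and Mthfd2) with no background correction, with the Feature Extraction processed signals, with the authors' table and with Cy5 only, and 1 (Mthfd2) with array quality weights. Over all probes 14, 20, 10, 8 and 10 were past it in these settings in turn, beside 3 in the main processing. The total was 24377 probes with the authors' table and 19398 otherwise. The members were picked on this contrast, so nothing is read from their counts. Leaving out each mouse in turn gave 0 to 1 member probes, the 1 being Mthfd2 without cHF+F+ROSI mouse 4, 5 or 6 (5, 4 and 5 of all 19398 probes). The other alternatives kept 0, including the methods' t-test, slide as a block and the adipocyte term, which was chosen after seeing the data. At the t-test's own threshold before adjustment were 5 of 14 member probes and 7 of 88 other pathway genes, beside 7.55% of all probes. For limma's 6 of 88 before adjustment, median centring gave 3, and leaving out cHF+ROSI mouse 1 or cHF+F+ROSI mouse 1, 3 or 4 also gave 3 (range 3 to 9). The median log2 fold change of the 14 probes, 0.13, became 0.25 with the Feature Extraction processed signals and 0.28 with the authors' table, and leaving out single mice gave 0.11 to 0.18. Of the other pathway genes 0 were past the threshold, and 1, Pycr1, with the Feature Extraction processed signals. The sign of Atf4 and of the brighter Sesn2 probe turned under 1 alternative each (for Atf4 also on leaving out either of 2 mice), and with the adipocyte term that of the second Phgdh probe. Over the processing alternatives the correlation of Trib3 with Mthfd2 over 16 mice was 0.52 to 0.79, and within cHF+F+ROSI mice 0.77 to 0.95. Within cHF+ROSI mice it was -0.52 to 0.13. Leaving out single mice gave 0.47 (without cHF+F+ROSI mouse 4) to 0.79 over all mice left. The correlation of Phgdh with the adipocyte markers was 0.93 to 0.98.

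Pairing by replicate number was not given by the design. With the replicate block 0 member probes and 0 pathway genes were past the threshold, the correlation of Trib3 with Mthfd2 was 0.74, and 2 of 8 cHF+ROSI mice correlated best with the mouse of their own number.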
